A study of Mus musculus with 6 samples.

Results

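The genes described here are 10 members of the interleukin-1 (IL-1) and interleukin-6 (IL-6) systems, read in RNA-seq of mouse lung. They were chosen by name from the 25860 genes of the count table, as the IL-1 ligands Il1a and Il1b, the antagonist Il1rn, the decoy receptor Il1r2, the related ligand Il18, the IL-6 family ligands Il6, Lif, Osm and Il11, and the shared receptor chain Il6st. All 10 are in the table, and 9 had enough reads to enter the comparison of genotypes, which covered 17231 genes. Il1r2 did not. The lungs came from 6 mice with 1 library each, replicates 1 to 3 being RAG1-/- and replicates 4 to 6 RAG1-/- Sgo1-/+. All 6 mice were 12 months old and untreated, the tissue looked normal, and the strain background was C57BL/6. Both groups are labelled RAG1-/-, and T and B lymphocytes need RAG1 to assemble their receptors, so neither label is that of a wild-type lung. Sgo1 (Shugoshin-1) protects the cohesion of sister chromatids, and mice with a single working copy are a model of chromosome instability. The question the comparison serves is how that instability affects the lung, and the study also measured IL-1 beta and IL-6 by PCR in lungs with an intact Rag1.

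IL-1 alpha and IL-1 beta bind the receptor Il1r1, which signals with Il1rap through Myd88 and IRAK kinases to the transcription factor NF-kB. Il1rn blocks that receptor without activating it, and Il1r2 binds IL-1 without signalling. IL-1 beta and IL-18 are made as precursors that caspase-1 cuts inside inflammasomes, and Il18bp, a secreted protein, holds IL-18 away from its receptor. The IL-6 family ligands bind further receptor chains, some of them shared between ligands, and most use gp130, the product of Il6st. Through gp130 they activate JAK kinases and STAT3. In the lung these cytokines are known for acute inflammation, neutrophil recruitment and the induction of acute-phase proteins.

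Reads counted on genes ranged from 3205822 to 9366774 per library, and RAG1-/- Sgo1-/+ replicate 6 was the shallowest. CPM are counts scaled so that each library sums to 1000000, and 3 counts, taken as the smallest amount detected, equal 0.320 to 0.936 CPM. Sgo1 itself had 6, 2 and 4 counts in RAG1-/- against 6, 0 and 2 in RAG1-/- Sgo1-/+, too few to check the labels, and Rag1 had 8 to 24 counts per library with overlapping groups. Several libraries stood apart from the others. RAG1-/- replicate 1 had 7717 counts of Xist and 2 of Ddx3y where the others had 4 to 8 and 342 to 1228, and its 6 adipocyte markers summed to 729 CPM against 60.6 to 115. By Xist and the Y-linked Ddx3y, replicate 1 is female and the other libraries are male. Sex is therefore not balanced between the genotypes, and its part in the values was not tested. RAG1-/- replicate 2 had 1853 counts of the immunoglobulin gene Igkc against 0 to 8, and its B cell and plasma cell markers summed to 920 CPM against 18.7 to 23.9. T cell markers summed to 32.7 CPM there, to 19.7 CPM in RAG1-/- Sgo1-/+ replicate 6 and to 2.99 to 6.48 CPM in the others. The B cell reads are at odds with the RAG1-/- label of replicate 2, and their source was not tested. In RAG1-/- Sgo1-/+ replicate 6 the 10 alveolar macrophage markers summed to 6868 CPM against 546 to 1097, of which Chil3, a secreted protein of alveolar macrophages, made up 6083 CPM. Epithelial and endothelial markers of lung, such as surfactant protein and Pecam1 genes, were detected in every library. Several results below move when replicate 6 is left out, and the values without it are given there.

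No member passed the test between genotypes. With edgeR's quasi-likelihood test and Benjamini-Hochberg adjustment, 0 of the 9 members compared met both thresholds (an adjusted P under 0.05 and 2-fold), and 0 had an unadjusted P under 0.05. Over all 17231 genes, 0% were called and 5.66% had an unadjusted P under 0.05. DESeq2 and limma-voom also called 0 members and gave 0 members an unadjusted P under 0.05. In CPM, 0 of the 10 members had groups that did not overlap, whereas 11.8% of the genes compared had. The fitted log2 fold change (RAG1-/- Sgo1-/+ over RAG1-/-) was above 0 for 4 members and below 0 for 5, with a median of -0.037 over the members and 0.034 over all genes. Without replicate 6 the median over the members was -0.41, against 0.018 over all genes. The P-values measure the spread between these 6 lungs, and in bulk tissue fewer cells of a type and less RNA per cell cannot be told apart.

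**Figure D1:**
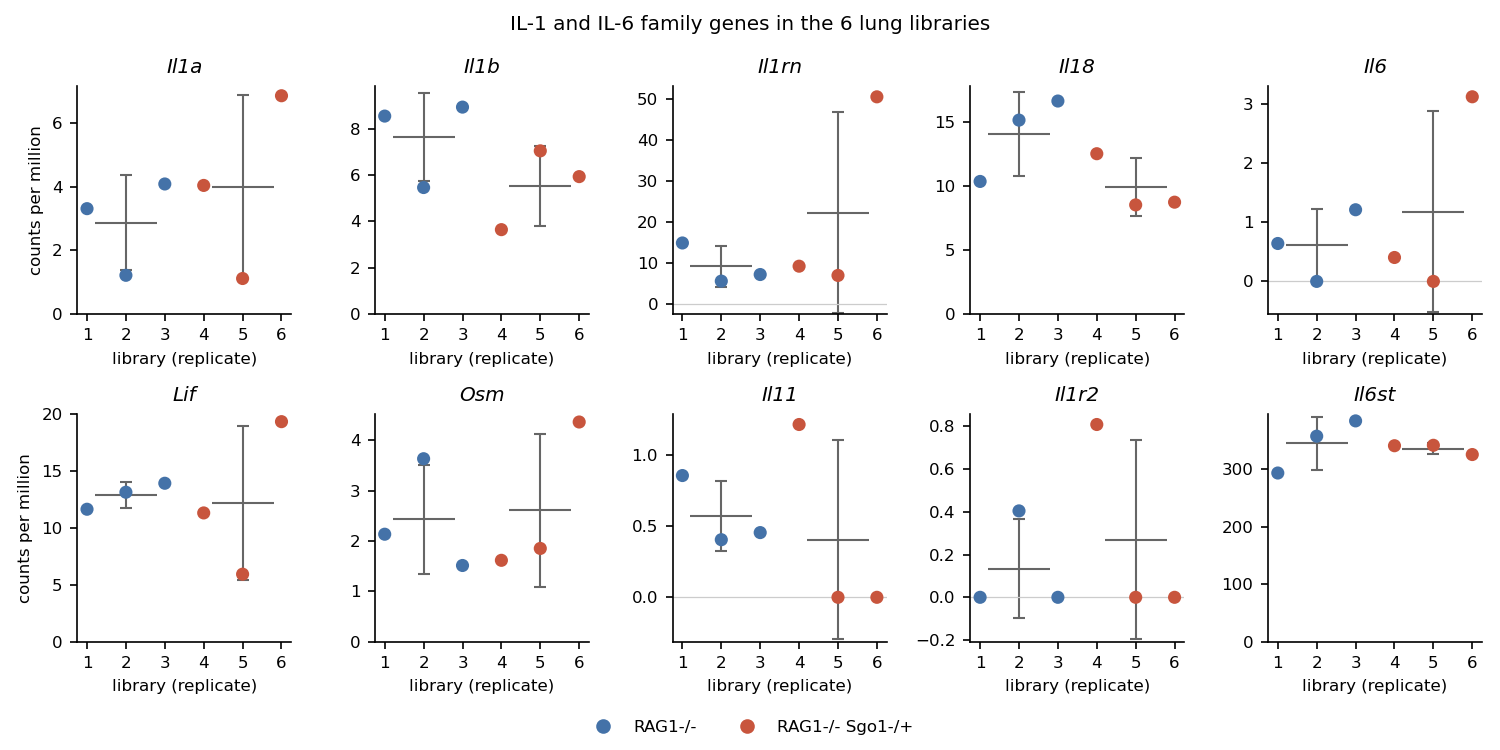
Each panel shows 1 gene, with CPM on the vertical axis and the 6 libraries on the horizontal axis (replicates 1 to 3 RAG1-/-, 4 to 6 RAG1-/- Sgo1-/+). Grey bars are the mean and SD of each group of 3. The groups overlap in every panel, and Il1rn in replicate 6 lies at 50.5 CPM against 5.66 to 14.9 in the other 5 libraries.

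The members differed far more from each other in level than between genotypes. Per kilobase of exon, Il6st had 31.0 ± 2.78 CPM per kb (SD, n = 6), and its lowest library lay above the highest library of the gene ranked next. Il18 followed with 11.6 ± 3.28, Il1rn with 5.83 ± 6.40, Il1b with 4.86 ± 1.47 and Lif with 3.10 ± 1.07 CPM per kb. Il1a had 1.74 ± 1.08 and Osm 1.11 ± 0.524 CPM per kb. The lowest were Il6 at 0.369 ± 0.486, Il11 at 0.234 ± 0.230 and Il1r2 at 0.142 ± 0.238 CPM per kb. Below Il6st, each gene in this order overlapped the next over the 6 libraries, so neighbouring ranks are not separated.

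The bases just before the start of transcription are shown for 4 of the ligand and antagonist genes, picked with their levels known. Il1rn, Il1a and Il6 were among the 5 members with their highest CPM in replicate 6, and Il1b, whose receptor Il1rn blocks, was not. Lif, Il11, Il18, Il1r2 and Il6st are not shown, so the display is no comparison of motifs with levels. Each line gives 150 bases ending at the base before an annotated start in RefSeq on GRCm38.p6, 5′ to 3′ on the strand of the gene. Capitals mark matches on either strand to a kappaB-type motif (GGG and CC with 5 bases of any kind between them) or an AP-1 motif (TGANTCA), and no stretch shown has matches of both kinds that overlap.
Il1rn, upstream start, chr2:24336710-24336859, plus strand: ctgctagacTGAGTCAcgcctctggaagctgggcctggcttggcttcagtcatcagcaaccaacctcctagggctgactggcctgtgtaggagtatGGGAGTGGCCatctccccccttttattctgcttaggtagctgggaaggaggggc
Il1rn, downstream start, chr2:24345141-24345290, plus strand: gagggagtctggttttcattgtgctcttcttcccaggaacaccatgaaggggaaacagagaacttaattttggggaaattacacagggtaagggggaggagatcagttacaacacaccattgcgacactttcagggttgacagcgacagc
Il1a, chr2:129309973-129310122, minus strand: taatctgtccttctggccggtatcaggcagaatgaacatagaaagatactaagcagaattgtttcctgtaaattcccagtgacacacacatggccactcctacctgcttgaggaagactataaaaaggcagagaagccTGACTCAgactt
Il6, chr5:30012964-30013113, plus strand: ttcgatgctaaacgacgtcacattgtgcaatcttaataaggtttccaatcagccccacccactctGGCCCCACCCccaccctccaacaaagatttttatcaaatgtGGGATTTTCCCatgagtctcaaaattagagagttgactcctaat
Il1b, chr2:129371140-129371289, minus strand: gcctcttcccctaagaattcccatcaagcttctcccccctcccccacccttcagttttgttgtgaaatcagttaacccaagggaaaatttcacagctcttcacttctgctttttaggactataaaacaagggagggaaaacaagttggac
Il1rn has 3 annotated starts, of which the most upstream and the next are shown, and reads counted per gene do not separate them. The start labelled downstream is thus the middle of the 3. The most downstream start, not shown, has a kappaB-type match 51 to 42 bases before it.

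Within 250 bases before a start, 9 members had sequence to search, and Osm was not analysed here. The kappaB-type letters occurred in 4 of these 9 genes (Il1rn, Il6, Lif and Il11), while 48.7% of all 27025 genes with a window had a match. The AP-1 letters occurred in 5 of the 9 (Il1a, Il1rn, Il6, Lif and Il11), against 7.82% of all genes. A match is only a run of letters, and no binding was measured. Lif, highest in replicate 6, had both kinds of match, and so had Il11, which had 0 counts there. Whether the matches bear on the levels in replicate 6 was not tested. By position, Il1a and Il1b lie close together on chromosome 2, with 0 protein-coding genes annotated between them, and Il1rn is far from both on the same chromosome. Lif and Osm are next to each other on chromosome 11, with 0 genes between them.

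The agonists Il1a and Il1b were both low, and their highest and lowest libraries differed. Il1b, the inducible ligand released mainly by myeloid cells, had 80, 27 and 59 counts in RAG1-/- against 18, 38 and 19 in RAG1-/- Sgo1-/+. In CPM these are 8.54, 5.46 and 8.93 against 3.64, 7.04 and 5.93. RAG1-/- replicates 1 and 3 were the highest, but RAG1-/- replicate 2 lay below 2 of the 3 double mutants. The log2 fold change was -0.48 (SE 0.35, 95% interval -1.25 to 0.30), and edgeR's adjusted P was 0.859. On CPM, the exact permutation test (two-sided) gave P = 0.3, where 3 against 3 cannot go below 0.1. The interval takes in both no difference and a fold of 0.419.

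Il1a, an agonist that epithelial and other cells keep in store and release on damage, had 3.31, 1.21 and 4.09 CPM in RAG1-/- against 4.04, 1.11 and 6.86 CPM in RAG1-/- Sgo1-/+. Each group thus held a library close to 1 CPM, from 6 counts, and the highest was replicate 6 with 22 counts. The fitted log2 value was 0.40 (95% interval -1.05 to 1.85) with an edgeR adjusted P of 0.941. Without replicate 6 the value was -0.19, and without RAG1-/- replicate 2 it was 0.062.

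Neutrophils are a known source of IL-1 beta, and 3 neutrophil genes, chosen after their values were seen, had lower fitted levels in the double mutants. S100a9, a calcium-binding protein abundant in neutrophils, had 50.3, 32.3 and 48.9 CPM in RAG1-/- against 8.28, 26.3 and 13.7, so that the groups did not overlap. Its log2 fold change was -1.43 (SE 0.35) with an unadjusted P of 0.00215 and an edgeR adjusted P of 0.832. For its partner S100a8 the values were 44.7, 20.2 and 33.9 CPM against 5.86, 16.7 and 20.6. Csf3r, the receptor for granulocyte colony-stimulating factor, had 13.9, 12.1 and 13.9 CPM against 6.26, 11.5 and 7.49, and again the groups did not overlap. Replicate 4 was the lowest library for Il1b and for all 3 of these genes, and also for Cxcr2 (0.808 CPM). The other markers compared had their lowest level elsewhere: Ltf in replicate 2 (43.2 CPM), Mmp8 in replicate 3 (1.51), Retnlg in replicate 5 (2.22) and Mmp9 in replicate 6 (1.25). Over the whole marker list, 3 of the 8 markers compared had an unadjusted P under 0.05, all lower, and 0 passed the adjusted test. Among all genes compared, 5.66% had an unadjusted P under 0.05 and 11.8% had groups that did not overlap. The fitted log2 fold change was below 0 for 6 of the 8 markers and above 0 for 2, Ltf and Mmp8. The summed level of the 11 markers nevertheless overlapped, at 123 to 278 CPM in RAG1-/- against 88.7 to 203 CPM in RAG1-/- Sgo1-/+, with Ltf, which epithelium also makes, as the gene of highest mean CPM. Ly6g, a defining neutrophil marker, was at 0 in every library. The part of neutrophils in the Il1b values was not tested.

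**Figure D2:**
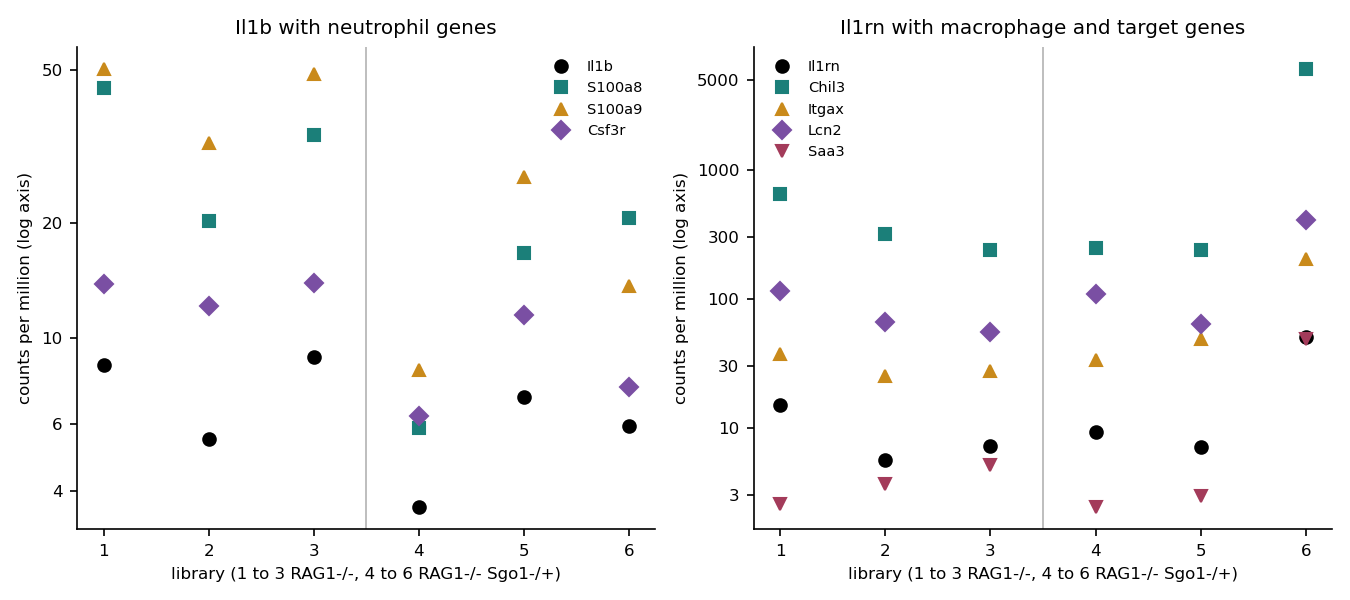
CPM on log axes for each library, with a vertical line between the genotypes. On the left, Il1b and 3 neutrophil genes, chosen after their values were seen, are all lowest in replicate 4. On the right, Il1rn, Chil3, Itgax, Lcn2 and Saa3 are all highest in replicate 6. Genes of the same lists without these patterns, such as Ltf, Ear1, Fabp1 and Serpina3n, are not drawn.

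Il1rn, the receptor antagonist, had 1 library far above the other 5. Its counts were 140, 28 and 48 in RAG1-/- against 46, 38 and 162 in RAG1-/- Sgo1-/+. In CPM, RAG1-/- had 14.9, 5.66 and 7.26, while the double mutants had 9.29, 7.04 and 50.5. Replicates 4 and 5 thus lay within the RAG1-/- range, and replicate 6 lay above all others. That gave a log2 fold change of 1.17 (SE 0.67, 95% interval -0.33 to 2.67), an edgeR adjusted P of 0.834 and an exact permutation P of 0.6. Without replicate 6 it was -0.22, so the direction rests on that library.

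Some alveolar macrophage genes stood highest in the same library, and others did not. Chil3 had 651, 321 and 238 CPM in RAG1-/- against 249, 239 and 6083 CPM in RAG1-/- Sgo1-/+. Itgax, the integrin chain CD11c, chosen after its values were seen, had 25.5 to 37.4 CPM in RAG1-/- against 33.5, 48.5 and 203 CPM in the double mutants. Of the 10 markers of the list, 6 were highest in replicate 6, while Ear1 and Fabp1 were lowest there and Krt79 and Marco lay within the range of the other libraries. The list's median log2 fold change was -0.086, and -0.48 without replicate 6. All 10 were detected, and their sum overlapped between groups, at 550 to 1097 against 546 to 6868 CPM. The monocyte and interstitial macrophage list ranged only from 339 to 417 CPM in RAG1-/- and from 369 to 529 CPM in RAG1-/- Sgo1-/+, and its highest library was also replicate 6. How far these cells account for the Il1rn reads was not tested.

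The balance of antagonist to agonist was read as the ratio of counts within a library, which does not depend on depth scaling. Il1rn over Il1b was 1.75, 1.04 and 0.814 in RAG1-/- against 2.56, 1 and 8.53 in RAG1-/- Sgo1-/+. Replicates 4 and 6 were above every RAG1-/- library and replicate 5 was within their range. The mean log2 ratio differed by 1.26 (group SDs 0.56 and 1.52), and the exact permutation P was 0.3. Without replicate 6 the difference was 0.47. Replicates 4 and 6 had similar Il1b counts, 18 and 19, while their Il1rn counts were 46 and 162. With Il1a added to the denominator the ratios ran from 0.558 to 1.26 in RAG1-/- and from 0.864 to 3.95 in RAG1-/- Sgo1-/+, with an exact permutation P of 0.4. That log2 difference was 0.91, and 0.27 without replicate 6.

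The decoy receptor Il1r2 was barely detected. It had 0, 2 and 0 counts in RAG1-/- against 4, 0 and 0 in RAG1-/- Sgo1-/+. With 6 reads in all, no fold is given and no difference was detectable at this depth. The signalling receptor Il1r1 was well covered instead, at 66.4 to 73.9 CPM in RAG1-/- against 69.2 to 80.4 CPM in RAG1-/- Sgo1-/+. Its log2 fold change of 0.10 had a 95% interval of -0.17 to 0.37.

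Il18, a ligand made by epithelium and macrophages that induces interferon gamma, had 10.4, 15.2 and 16.6 CPM in RAG1-/- against 12.5, 8.52 and 8.73 CPM in RAG1-/- Sgo1-/+. Replicates 5 and 6 lay below every RAG1-/- library, and replicate 4 lay above RAG1-/- replicate 1. The log2 fold change was -0.49 (SE 0.27, 95% interval -1.09 to 0.11), with an unadjusted P of 0.101, the smallest of the members, and an edgeR adjusted P of 0.832. It kept its sign under every alternative run, from -0.70 to -0.34. The secreted inhibitor Il18bp was at 6.94 to 13.7 CPM against 7.88 to 18.7, and the ratio of Il18bp to Il18 was 0.670, 0.907 and 0.673 in RAG1-/- against 0.629, 1.43 and 2.14 in RAG1-/- Sgo1-/+. Replicates 5 and 6 had more Il18bp than Il18 reads and the other 4 libraries had fewer. The log2 ratio differed by 0.73 with an exact permutation P of 0.4, and by 0.35 without replicate 6.

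**Figure D3:**
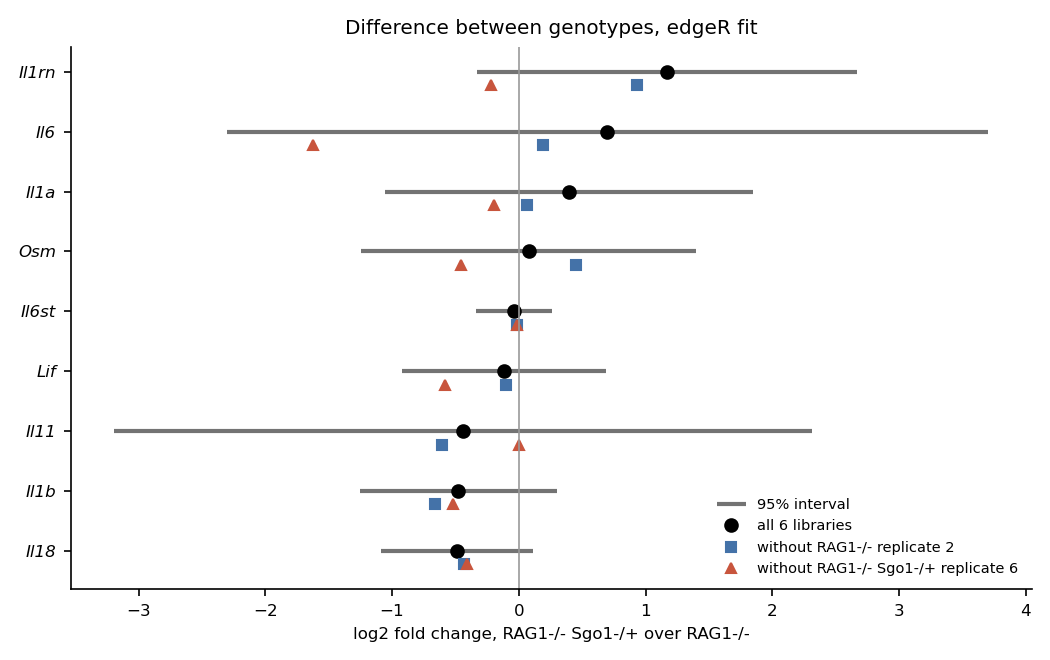
The horizontal axis is the log2 fold change (RAG1-/- Sgo1-/+ over RAG1-/-) of the 9 members compared. Black points with grey bars are the estimate and its 95% interval from all 6 libraries, squares the fit without replicate 2 and triangles the fit without replicate 6. All intervals include 0, and Il1rn, Il6, Il1a and Osm fall below 0 without replicate 6.

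Of the 4 IL-6 family ligands among the members, only Lif exceeded 5 CPM in every library. Lif, a ligand known for stem cell maintenance, had 109, 65 and 92 counts in RAG1-/- against 56, 32 and 62 in RAG1-/- Sgo1-/+. That gives 11.6, 13.1 and 13.9 CPM against 11.3, 5.93 and 19.3. The RAG1-/- lungs were close together, and replicates 5 and 6 lay on either side of them. On the log2 scale the difference was -0.11 (SE 0.36, 95% interval -0.92 to 0.69) and edgeR's adjusted P was 0.974. Without replicate 6 it was -0.58, and without replicate 5 it was 0.23.

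Il6, the family's main acute-phase inducer, was near the limit of detection. It had 6, 0 and 8 counts in RAG1-/- against 2, 0 and 10 in RAG1-/- Sgo1-/+. A library of each group had 0 counts, which allows up to 0.606 CPM in replicate 2 and 0.556 CPM in replicate 5. The 95% interval of its log2 fold change, -2.30 to 3.70, runs from a fold of 0.202 to one of 13.0, so the depth leaves the size of any difference undetermined, and without replicate 6 the estimate moved from 0.70 to -1.62.

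Osm, a macrophage and neutrophil product, had 20, 18 and 10 counts in RAG1-/- against 8, 10 and 14 in RAG1-/- Sgo1-/+. Scaled to depth these are 2.14, 3.64 and 1.51 CPM against 1.62, 1.85 and 4.37, with the groups interleaved. They differed by a log2 fold change of 0.077 (95% interval -1.25 to 1.40), with an edgeR adjusted P of 0.990, and it was -0.46 without replicate 6. Il11, a ligand of fibroblasts and other stromal cells, had 8, 2 and 3 counts in RAG1-/- against 6, 0 and 0 in RAG1-/- Sgo1-/+. For it the log2 fold change was -0.44 with a 95% interval of -3.19 to 2.32, and 0.0018 without replicate 6. At these counts no difference was detectable.

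Il6st, which encodes gp130, was the most precisely measured member. It had 2749, 1770 and 2539 counts in RAG1-/- against 1688, 1845 and 1044 in RAG1-/- Sgo1-/+. Scaled to depth it had 293, 358 and 384 CPM against 341, 342 and 326, and the double mutants lay inside the RAG1-/- range. The log2 fold change was -0.037 (SE 0.13), with an edgeR adjusted P of 0.977. The 95% interval of the fold, 0.793 to 1.20, leaves out a 2-fold difference either way.

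Il6ra, the receptor chain that brings IL-6 to gp130, had groups that did not overlap, as had 11.8% of all genes compared. It had 16.1, 18.6 and 20.4 CPM in RAG1-/- against 27.9, 24.1 and 27.1 CPM in RAG1-/- Sgo1-/+, from 87 to 151 counts per library. All 3 double mutants were above all 3 RAG1-/- lungs. The log2 fold change was 0.52 (SE 0.17, 95% interval 0.14 to 0.90), but with an unadjusted P of 0.0115 the edgeR adjusted P was 0.832. Read within each library, Il6st over Il6ra was 18.2, 19.2 and 18.8 in RAG1-/- against 12.2, 14.2 and 12.0 in RAG1-/- Sgo1-/+. The mean log2 ratio differed by -0.55 (group SDs 0.037 and 0.13) and the exact permutation P was 0.1, the smallest that 3 against 3 allows. Because Il6st hardly differed between the groups, this ratio restates the Il6ra difference and is not a separate result. The other ratios taken had groups that overlapped. The log2 fold change of Il6ra stayed between 0.43 and 0.61 under every alternative run.

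**Figure D4:**
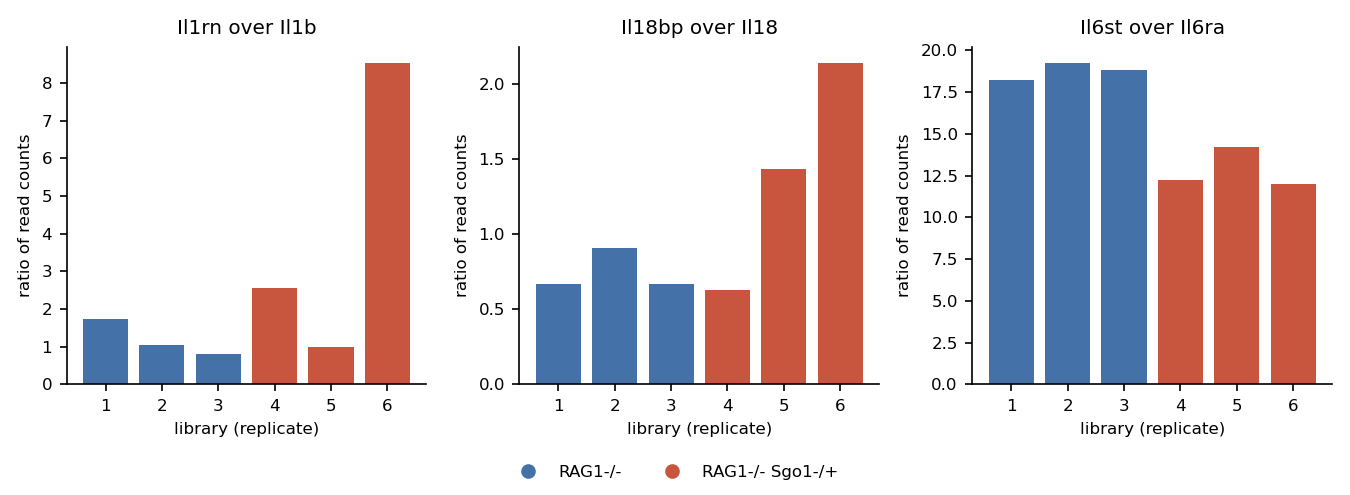
Bars are the ratio of read counts of 2 genes in each library, with replicates 1 to 3 from RAG1-/- and 4 to 6 from RAG1-/- Sgo1-/+. The Il6st over Il6ra ratio is 18.2 to 19.2 in RAG1-/- against 12.0 to 14.2 in RAG1-/- Sgo1-/+, whereas the other ratios overlap between groups.

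The other receptors of the IL-6 family showed a mixed picture. Of 8 compared, 0 passed the adjusted test, and Il6ra and Lifr had an unadjusted P under 0.05 in opposite directions. Over all genes compared, 5.66% had an unadjusted P under 0.05. Lifr, the receptor that pairs with gp130 for Lif, had 204, 187 and 237 CPM in RAG1-/- against 141, 203 and 120 CPM in RAG1-/- Sgo1-/+. Replicate 5 was within the RAG1-/- range, and the log2 fold change was -0.43 (SE 0.19, edgeR adjusted P 0.832). Without replicate 6 its log2 fold change was -0.28 with an unadjusted P of 0.139. The list's median log2 fold change was -0.12, beside 0.034 over all genes, and -0.27 without replicate 6. Il11ra2, a near copy of Il11ra1 whose reads may be split between them, had 6, 16 and 10 counts against 2 in each double mutant, and it is uncertain for that reason.

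Among JAK-STAT3 genes, Stat3 itself overlapped between groups, at 212, 231 and 184 CPM in RAG1-/- against 210, 244 and 229 CPM in RAG1-/- Sgo1-/+. Of 12 genes compared 0 passed the adjusted test and 2 had an unadjusted P under 0.05, both higher in the double mutants, with groups that did not overlap, where 5.66% and 11.8% of all genes met these marks. Without replicate 2, 0 of the 12 had an unadjusted P under 0.05 (0.0874 for Tyk2 and 0.0612 for Socs3). Tyk2, a kinase bound to gp130 receptors, had 42.2, 38.4 and 38.9 CPM against 52.9, 47.4 and 48.3, a log2 fold change of 0.31 (SE 0.13). Socs3, the feedback inhibitor of gp130 that STAT3 induces, had 48.7, 52.9 and 45.6 CPM against 56.6, 53.7 and 88.6. For Socs3 the gap between groups was small apart from replicate 6, and its log2 fold change of 0.43 was 0.17 without that library. The median log2 fold change of the list was 0.079. None of the 5 other IL-6 family ligands compared had an unadjusted P under 0.05. They include Ctf1 (cardiotrophin), at 7.69 to 10.6 against 8.73 to 14.4 CPM. Ebi3, a subunit of IL-27 and IL-35, had 10 to 22 counts against 1 to 12.

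On the IL-1 side, none of the 33 other genes compared in 4 lists passed the adjusted test or had an unadjusted P under 0.05. Il33, an alarmin stored in the nuclei of lung epithelium, had 66.2 ± 17.6 CPM per kb (SD, n = 6), more than any IL-1 family ligand among the members. Its levels were 188, 112 and 179 CPM in RAG1-/- against 213, 122 and 221 CPM in RAG1-/- Sgo1-/+. Il36g, an epithelial ligand, was at 2.14 to 5.25 against 3.23 to 4.45 CPM. Il18r1, the ligand-binding receptor chain for IL-18, was at 192, 202 and 234 CPM against 244, 216 and 250, with a log2 fold change of 0.18 (95% interval -0.11 to 0.47). All 8 receptors and inhibitors compared had a fitted log2 fold change above 0, from 0.028 to 0.58 (median 0.15). The highest was that of Il1rl2, the receptor of the IL-36 ligands. The groups overlapped in CPM for each of the 8, and of all 17231 genes compared, 9461 had a fitted value above 0.

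In the signalling branch, Traf6, the ubiquitin ligase that relays IL-1 signals, had 38.6, 41.4 and 39.2 CPM in RAG1-/- against 45.7, 57.2 and 44.0 CPM in RAG1-/- Sgo1-/+. Tab1, a subunit of the TAK1 kinase complex, had its values on the other side, at 30.6, 32.3 and 31.3 CPM against 25.1, 26.3 and 25.6. Neither gene's groups overlapped, and their unadjusted P-values were 0.0582 and 0.0621. Without replicate 6 the value for Traf6 was 0.0302. Of the 13 genes of this list, 3 were higher without overlap in the double mutants (Irak1, Traf6 and Nfkb1) and 1 was lower. Over all genes compared, 11.8% had groups that did not overlap. Tab2, the gene of highest mean CPM in that list, was at 123 to 159 against 149 to 169 CPM. In the inflammasome list, Nlrc4, a sensor subunit, had 12, 10 and 10 counts against 4, 3 and 2, with a log2 fold change of -1.23 (95% interval -2.76 to 0.30). Gsdmd, the pore through which IL-1 beta leaves cells, was at 50.6 to 63.2 against 51.3 to 56.8 CPM, and Naip5, a partner of Nlrc4, was at 11.7 to 18.1 against 11.7 to 21.2 CPM.

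Several genes that these cytokines are known to induce were highest in replicate 6. Of 9 IL-6 and OSM target genes compared, 0 passed the adjusted test and 2 had an unadjusted P under 0.05. Over all genes compared, 5.66% had an unadjusted P under 0.05. The 2 target genes were lost without replicate 6, where Serpina3n alone was under 0.05 (0.0217), and without replicate 2. Saa3, an acute-phase protein of lung and macrophages, had 2.56, 3.64 and 5.15 CPM in RAG1-/- against 2.42, 2.96 and 49.3 CPM in RAG1-/- Sgo1-/+. Lcn2, an iron-scavenging protein of inflamed epithelium and neutrophils, had 115, 66.7 and 55.4 CPM against 110, 63.4 and 413. For both genes the groups overlapped, and replicate 6 alone was above the RAG1-/- range. The list's median log2 fold change was 0.97 with all libraries and 0.0034 without replicate 6. Hp, haptoglobin, had the highest mean CPM of the list and lay at 1159 to 1810 against 1444 to 1807 CPM.

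The NF-kB target list had 12 genes compared, of which 0 had an unadjusted P under 0.05, and its median log2 fold change was 0.46, or 0.092 without replicate 6, where Nfkbiz alone had an unadjusted P under 0.05 (0.0166, log2 fold change -0.53). Cxcl1 and Cxcl5, chemokines that attract neutrophils, had 0.404 to 2.12 and 1.62 to 4.84 CPM in RAG1-/-. In RAG1-/- Sgo1-/+ Cxcl1 had 1.41, 2.96 and 4.99 CPM and Cxcl5 had 4.04, 5.37 and 10.6 CPM. Icam1, an adhesion molecule for leukocytes, was at 435 to 630 against 462 to 751 CPM.

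Il1a, Il1rn, Il6, Lif and Osm, 5 of the 10 members, had their highest CPM in replicate 6, as did 25.4% of all genes compared and 27.9% of those with fewer than 1000 counts in all. This count was made after the values were seen. Il1b, Il18 and Il6st were highest in RAG1-/- replicate 3, and Il11 and Il1r2 in replicate 4. Replicate 6 is also the shallowest library and the one with the high Chil3 level (without Chil3 the alveolar macrophage sum was 785 CPM there and 307 to 447 CPM in the others), and the part of either was not tested.

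For members with a mean of at least 30 reads per library, the genes with the most similar profile were listed, by the root mean square (RMS) difference of centred log2 CPM over the 6 libraries, among 14639 candidates. Il1rn was closest to Tnfrsf9 (0.11), a receptor of activated leukocytes, then to Ccl6 (0.18), a macrophage chemokine, and Lcn2 (0.26), where the median candidate lay at 1.06. Ccl6 had 301, 156 and 138 CPM in RAG1-/- against 205, 140 and 914 CPM in RAG1-/- Sgo1-/+, so its profile, like that of Il1rn, is mostly the high replicate 6 and the next highest RAG1-/- replicate 1. Il1b was closest to Aspa (0.087), Nmd3 (0.11) and 9630013D21Rik (0.14), and Il18 to Schip1 (0.035), Gm4184 (0.062) and Ect2 (0.085). Lif was closest to Sertad3 (0.12), Epb41l3 (0.14) and Stard5 (0.16), and Il6st to Npr1 (0.032), Kdm3a (0.034) and Zdhhc17 (0.034). With 6 libraries and so many candidates, some close profiles are found for any gene, and these are descriptions only.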

How the data were processed

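Total RNA of normal-looking lung was made into TruSeq libraries and sequenced in paired-end mode on an Illumina MiSeq. The authors deposited whole-number read counts per gene from GeneSifter, on mouse build 37.2 per the file header. The submitters' processing notes also name BWA and edgeR. Aligner settings and strand use are not given in the sources used here. The table repeats every library in a second column with the same values, and the first column was read. Of counts from 1 to 49, 75.1% to 77.5% were even, so that both reads of a pair may have been counted. The floor of 3 counts covers counting error only. The authors' list of called genes holds only the fold changes and P-values of their own comparison and was not used. Genes were named by Entrez Gene ID (24048 of 25860 matched), and exon lengths, starts and promoter sequence came from GRCm38 annotation.

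Samples were grouped by the genotype in the labels. Genes with at least 10 counts over the 6 libraries entered edgeR's quasi-likelihood test (edgeR 4.0.16, R 4.3.3), with library size set to the total count and Benjamini-Hochberg adjustment over all genes (prior count of fold changes 0.125). Calls needed an adjusted P under 0.05 and a 2-fold difference. Exact permutation tests over the 10 splits were two-sided. Log2 ratios had 1 count added. Alternatives were edgeR's TMM, DESeq2 1.42.0, limma-voom (limma 3.58.1), no filter, filterByExpr, halved counts, an unadjusted P, another count added in ratios, and libraries left out. Ratios without each library, and the macrophage sum without Chil3, were added after the data were seen.

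The members, lists and named genes were chosen with earlier results of these data known. Named were the members, the targeted genes, Xist, Ddx3y and Igkc, of each pathway list the gene with the highest mean CPM and the 2 with the smallest P, of marker lists used the most abundant gene and defining markers at 0, and the 3 most similar genes per member (prior count 2, at least 60 counts). Il1r1, Il18bp, Il11ra2, S100a8, S100a9, Csf3r, Cxcr2, Mmp8, Mmp9, Retnlg, Itgax, Ear1, Fabp1, Krt79, Marco, Awat1, Serpina3n, Nfkbiz, Irak1, Nfkb1 and H2-K1 were named after their values were seen. A gene named by the rule is not reported here.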

Additional observations from a re-analysis of the deposited data

How the results depend on the processing

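Of 115 member values under 13 alternatives, 98 kept their direction and 17 did not, and Il1b and Il18 were the 2 members that kept it in every alternative run. No alternative called a member, and the members' adjusted P was at least 0.593 in all of them. Leaving out RAG1-/- replicate 2 and RAG1-/- Sgo1-/+ replicate 6 together turned the log2 fold changes of Il1a (-0.53), Il1rn (-0.46), Il6 (-2.11), Osm (-0.083), Il6st (0.011), Il1rl2 (-0.012), Il33 (-0.13), Naip5 (-0.013) and Saa3 (-0.49), and limma-voom turned Il6 (-0.24). With each library left out in turn, the range was -0.19 to 0.87 for Il1a, -0.22 to 1.72 for Il1rn, -1.62 to 1.45 for Il6, -0.58 to 0.23 for Lif, -0.46 to 0.45 for Osm, -4.85 to 0.18 for Il11, -0.14 to 0.047 for Il6st, -0.15 to 0.14 for Hp, -0.062 to 0.35 for Icam1, -0.16 to 0.49 for Il36g and -0.47 to 2.75 for Saa3. The Il11 value of -4.85 is against a group at 0 counts and is no bound. Members with an unadjusted P under 0.05 numbered 0 to 2 in these fits: Il1rn and Il18 without replicate 1, Il18 and Il11 without replicate 4, and Il1rn without replicate 5. Of all genes compared, 1194 of 16829 were under 0.05 without replicate 1 and 1420 of 17056 without replicate 4. The numbers were 928 of 17028 without replicate 5 and 976 of 17231 with all libraries. Genes called numbered 0 with all libraries and 0 to 1 with a library left out (H2-K1, without replicate 5), and DESeq2 called 1 (Awat1, 65 counts in replicate 6 and 0 elsewhere). An unadjusted P with the 2-fold threshold gave 233 genes. The causes were not tested. Il6 and Il11 had too few reads under filterByExpr. No paired analysis was possible because the labels give no litter, cage or other pairing of the mice. Depth limits Il6, Il11 and Il1r2 most.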
